A study of Homo sapiens with 8 samples.

Results

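The 8 genes described here belong to one growth factor system: the receptors EGFR, ERBB2 and ERBB3, the ligands EREG, HBEGF, TGFA and AREG, and ERRFI1, an intracellular inhibitor of the receptors. The members were taken by name from the table of normalized read counts, in which all 8 had a row among 13307 genes, by a rule that uses no measured value. The list of names was itself chosen with earlier results of these data known. The libraries came from Panc-1, an established line of human pancreatic ductal carcinoma cells. The cells were transfected with a non-targeting siRNA (siControl) or with siRNAs against PHF13 (siPHF13), a PHD finger protein that reads a methylated histone. Each was sequenced untreated and after 48 h in medium with TGFβ at 10 ng/ml, which induces epithelial to mesenchymal transition, giving 4 groups of 2 libraries. All 4 groups thus share 1 cell line and a transient transfection, and nothing in the sources says whether the 2 libraries of a group came from separate transfections, so that p-values measure the spread between these libraries, which may be technical.

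The ERBB receptors are receptor tyrosine kinases at the cell surface. EGFR binds EGF, TGFα, amphiregulin (AREG), epiregulin (EREG), betacellulin (BTC) and HB-EGF, ERBB3 and ERBB4 bind neuregulins, and ERBB2 has no known soluble ligand and acts as a partner in dimers. The ligands are made as membrane-bound precursors that proteases of the ADAM family cut free, and the active receptors signal through RAS, ERK and PI3K to growth, survival and migration. ERRFI1, also called MIG6, binds the kinase domain of EGFR and blocks it, and its gene is itself induced by growth factor signals.

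In these data PHF13 depletion lowered EGFR to 62.7% of the siControl level in untreated cells and to 52.4% in TGFβ-treated cells. TGFA, a ligand at a far lower level, fell to 35.9% and to 23.8%. EREG rose to 162.0% and to 166.0%. Per transcript length it was the highest of the 4 ligands as listed in untreated cells, although the counts of AREG may be too low. AREG rose with depletion in TGFβ-treated cells, on few reads. TGFβ itself raised EGFR, HBEGF and ERRFI1 and lowered EREG in siControl cells, each by less than the fold change of 0.58 on the log2 scale that was required for a call.

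The positions are those of GRCh37 (hg19), the build to which the authors mapped the reads. EGFR lies at chr7:55086710-55279321 on the plus strand, with 28 exons in its canonical transcript. ERBB2 lies at chr17:37844167-37886679 and ERBB3 at chr12:56470583-56497289, both on the plus strand. TGFA (chr2:70674416-70781325), HBEGF (chr5:139712428-139726188) and ERRFI1 (chr1:8064464-8086369) are on the minus strand. EREG (chr4:75230862-75254466) and AREG (chr4:75310853-75320722) are neighbours on the plus strand of chromosome 4, with their starts 79991 bases apart.

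Promoter sequences are shown for EGFR, TGFA, EREG and AREG, the members that passed both thresholds under depletion in at least 1 medium (AREG with TGFβ alone). RefSeq's table for GRCh38.p14 held a start for 7 of the 8 members, ERBB3 being the exception, and the 250 bases before each start were read from it. The regions are chr7:55018767-55019016 for EGFR, chr2:70553827-70554076 for TGFA, chr4:74364895-74365144 for EREG and chr4:74444886-74445135 for AREG. Each is written 5′ to 3′ on the strand of its gene. Capitals mark matches on either strand to the GC box GGGCGG, the TATA box TATAAA, the cyclic AMP response element TGACGTCA, the AP-1 element TGACTCA and the SMAD-binding letters CAGACA, none of which overlap here.
EGFR: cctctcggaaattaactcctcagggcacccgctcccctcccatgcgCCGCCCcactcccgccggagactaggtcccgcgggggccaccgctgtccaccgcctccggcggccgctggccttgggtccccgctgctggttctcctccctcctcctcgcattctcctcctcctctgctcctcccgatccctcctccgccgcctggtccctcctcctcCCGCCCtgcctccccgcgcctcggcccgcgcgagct
TGFA: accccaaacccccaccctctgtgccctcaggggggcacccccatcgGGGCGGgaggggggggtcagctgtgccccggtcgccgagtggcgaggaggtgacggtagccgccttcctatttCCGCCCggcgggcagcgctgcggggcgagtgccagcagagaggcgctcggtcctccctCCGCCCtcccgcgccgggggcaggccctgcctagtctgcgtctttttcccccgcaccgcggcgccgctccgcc
EREG: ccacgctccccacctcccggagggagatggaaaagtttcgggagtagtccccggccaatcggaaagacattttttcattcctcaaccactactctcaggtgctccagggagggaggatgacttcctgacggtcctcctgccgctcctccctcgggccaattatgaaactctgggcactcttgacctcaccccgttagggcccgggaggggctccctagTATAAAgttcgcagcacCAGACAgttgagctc
AREG: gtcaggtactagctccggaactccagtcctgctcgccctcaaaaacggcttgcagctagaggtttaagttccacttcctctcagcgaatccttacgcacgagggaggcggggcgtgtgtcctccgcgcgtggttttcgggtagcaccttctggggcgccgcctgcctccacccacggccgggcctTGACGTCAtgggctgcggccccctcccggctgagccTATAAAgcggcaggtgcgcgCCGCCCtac
Both members that fell held GC boxes and no TATA box in this window, with 2 GC boxes in EGFR, 204 and 36 bases before the start, and 3 in TGFA, 204, 131 and 73 bases before it. EREG and AREG both held a TATA box, 32 and 29 bases before the start. EREG also held the SMAD letters 15 bases before the start, and AREG a cyclic AMP response element 65 bases and a GC box 9 bases before it. Among 35116 promoters of the same length, 42.6% held the GC box, 10.7% TATAAA, 1.65% TGACGTCA, 13.6% CAGACA and 4.20% TGACTCA, which none of the 7 members held. HBEGF held 5 GC boxes and ERRFI1 held 1, and neither held the letters TATAAA. ERRFI1 did hold TATATATA near its start, a TATA-like stretch that a search for TATAAA does not find. As HBEGF shows, GC boxes without TATAAA were not particular to the members that fell. The start in the table for ERBB2 is 11970 bases from that of its canonical transcript and is not shown. Such matches describe the letters in these windows.

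To compare genes with each other, the normalized counts were divided by the length of the canonical transcript in kilobases. On that scale ERRFI1 was the highest of the 8 in untreated siControl cells, at 11790 ± 77.9 (SD, n = 2), followed by EGFR at 3062 ± 1.99, EREG at 798.4 ± 23.6, HBEGF at 708.5 ± 5.48 and ERBB2 at 245.7 ± 12.5. AREG (20.75 ± 12), TGFA (16.39 ± 0.277) and ERBB3 (9.586 ± 2.21) lay far below as listed, although the AREG counts may lack reads that also match AREGB, a near-identical copy of the gene. The libraries of AREG spanned those of TGFA, so that their order is not set, while every other pair of neighbours was separated in both libraries. The level per kilobase of EGFR was 12.9 and 12 times that of ERBB2 in the 2 siControl libraries. EGFR was thus the highest of the 3 receptors per transcript length, and EREG and HBEGF made up 51.7% and 45.9% of the summed level of the 4 ligands as listed, a sum in which AREG may be too low.

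**Figure D1:**
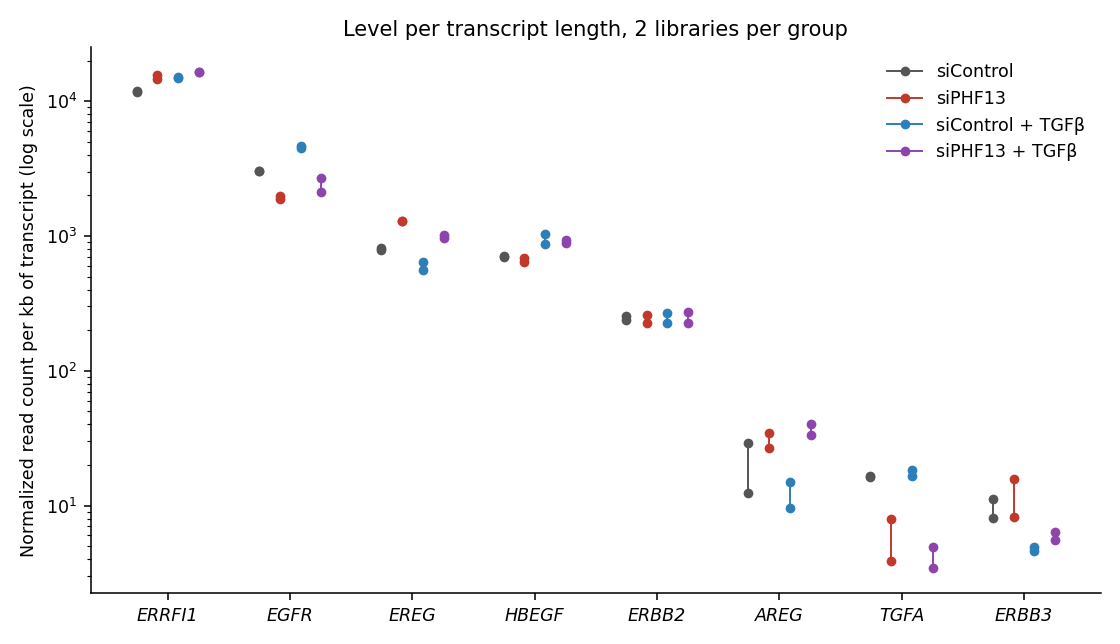
Normalized read counts per kilobase of the canonical transcript (log scale) for the 8 genes, with 2 points per group joined by a line. ERRFI1 and EGFR lie highest, at 11790 and 3062 in siControl, and AREG, TGFA and ERBB3 lie lowest as listed, at 20.75, 16.39 and 9.586. AREG may be too low, as reads that also match its copy AREGB may not be counted. EREG lies above HBEGF in siControl and below it in siControl + TGFβ.

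The order of EREG and HBEGF, the 2 highest ligands as listed, differed between groups. EREG was 1.10 and 1.16 times as high as HBEGF per kilobase in the siControl libraries, and 1.9 and 2 times as high in the siPHF13 libraries. With TGFβ the ratio was 0.532 and 0.739 in siControl cells, where HBEGF lay above EREG in both libraries, and 1.04 and 1.16 in siPHF13 cells. EREG thus made up 37.9% ± 5.30 (SD, n = 2) of the summed RNA of the 4 ligands in siControl + TGFβ, and 64.8% ± 0.495 in siPHF13. The share of AREG is not known for the reason given below with its values, and the shares of the others are of the counts as listed. With 2 libraries against 2, an exact permutation test over libraries cannot reach 0.05, and these ratios are given as a description.

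EGFR, a receptor for all of these ligands, had 30342 and 30314 normalized counts in the siControl libraries and 18517 and 19512 in the siPHF13 libraries. With TGFβ the counts were 44778 and 45861 in siControl and 26592 and 20910 in siPHF13. The groups without and with depletion did not overlap in either medium, and both siPHF13 + TGFβ libraries stayed below untreated siControl. Depletion gave a log2 fold change of -0.67 (95% confidence interval -0.86 to -0.49, adjusted p = 2.80e-05, limma with Benjamini-Hochberg adjustment over all 13307 genes) without TGFβ and of -0.94 (-1.13 to -0.76, limma adjusted p = 1.22e-06) with it. In bulk RNA, fewer cells with a transcript and less of it per cell cannot be told apart.

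TGFβ raised EGFR in siControl cells by 0.579 on the log2 scale (limma adjusted p = 0.000425), which is just under the 0.58 set for a call. In siPHF13 cells the difference was 0.31 (0.12 to 0.50, limma adjusted p = 0.0809), with both treated libraries above both untreated ones. It was 0.14 (limma adjusted p = 0.250) without siPHF13 + TGFβ replicate 1 and 0.48 (limma adjusted p = 7.80e-05) without replicate 2, and over the alternatives with all libraries of the comparison its adjusted p ran from 7.51e-05 (a crossed replicate block, chosen after seeing the data) to 0.205, DESeq2 giving 0.0146. The response in siPHF13 cells minus that in siControl cells was -0.27 with an unadjusted p of 0.0473 and a limma adjusted p of 0.517. It was -0.44 (limma adjusted p = 0.00566) without siPHF13 + TGFβ replicate 1 and -0.10 (limma adjusted p = 0.758) without replicate 2, and the adjusted p ran from 0.509 to 0.540 over the alternatives that kept all libraries. The 2 siPHF13 + TGFβ libraries differed from each other by more than those of any other group, with an SD of 4018 around 23751.

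ERBB2, the receptor without a ligand of its own, had between 1024 and 1249 normalized counts in all 8 libraries. The libraries of every pair of groups overlapped. Its log2 fold change was -0.03 (-0.27 to 0.22) under depletion and 0.03 (-0.22 to 0.27) under depletion with TGFβ, so that differences beyond 0.27 in size lay outside the intervals of both. The level of EGFR over ERBB2 per kilobase was 8.32 and 7.65 in siPHF13 and 17 and 20.5 in siControl + TGFβ.

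ERBB3, a neuregulin receptor whose own kinase is weak, was low. It had 62.6 and 45.1 normalized counts in siControl, 45.8 and 88.8 in siPHF13, 25.9 and 27.8 in siControl + TGFβ and 31.3 and 35.6 in siPHF13 + TGFβ. All 4 TGFβ-treated libraries were below all 4 untreated ones. The log2 fold change with TGFβ was -0.96 (-1.77 to -0.15, limma adjusted p = 0.107) in siControl cells and -0.91 (-1.73 to -0.10, limma adjusted p = 0.279) in siPHF13 cells, so neither passed the test at this depth of 24 to 90 reads per library. Under depletion the untreated groups overlapped, with a log2 fold change of 0.26 (-0.55 to 1.07).

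ERRFI1, the receptor inhibitor, had 36690 and 36348 normalized counts in siControl, 45673 and 48224 in siPHF13, 47216 and 45865 in siControl + TGFβ, and 50733 and 50958 in siPHF13 + TGFβ. Untreated siControl was the lowest group, and the libraries of siPHF13 and of siControl + TGFβ overlapped each other. Depletion raised ERRFI1 by 0.36 on the log2 scale (0.24 to 0.49, limma adjusted p = 0.000174) and TGFβ raised it by 0.35 (0.23 to 0.47, limma adjusted p = 0.000881), both short of 0.58 and with the siControl libraries in common. In TGFβ-treated cells the difference with depletion was 0.13 (0.00 to 0.25, limma adjusted p = 0.0806). The response to TGFβ in siPHF13 minus that in siControl cells was -0.23, with an unadjusted p of 0.0127 and a limma adjusted p of 0.322. The ratio of the inhibitor to its receptor, ERRFI1 over EGFR per kilobase, was 3.87 and 3.83 in siControl, 7.89 and 7.90 in siPHF13, 3.37 and 3.2 in siControl + TGFβ and 6.10 and 7.79 in siPHF13 + TGFβ. It was higher in all 4 siPHF13 libraries than in all 4 siControl libraries.

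**Figure D2:**
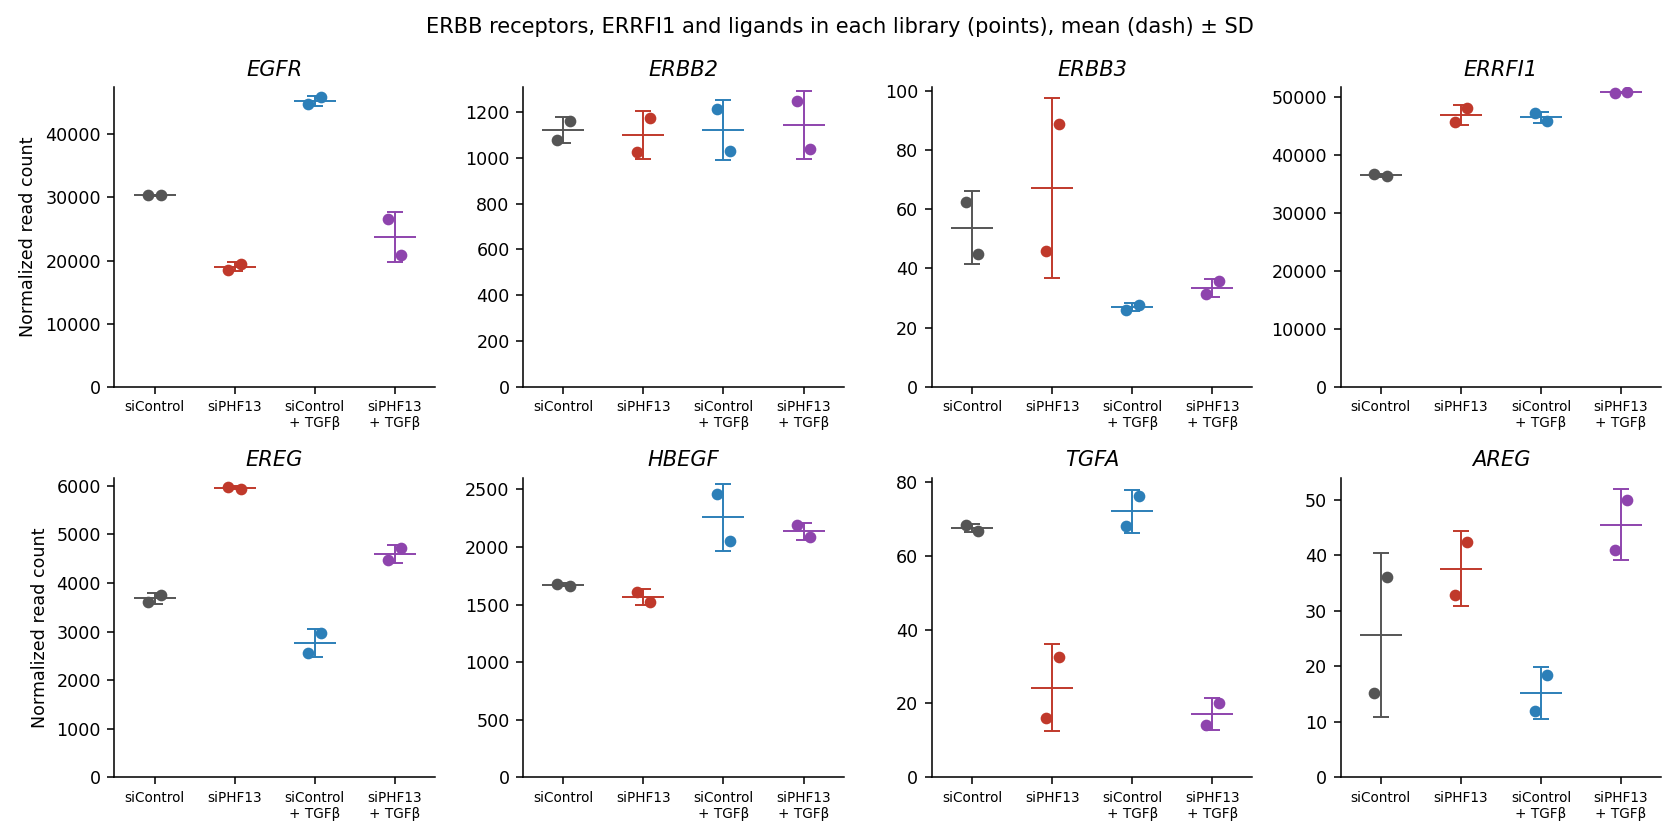
Normalized read counts of the 8 genes (linear axes from 0, one panel per gene) in the 4 groups, with a point per library and the mean ± SD. EGFR and TGFA are lower and EREG is higher in siPHF13 than in siControl both without and with TGFβ, while ERBB2 lies between 1024 and 1249 throughout.

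EREG, epiregulin, which binds EGFR and ERBB4, had 3608 and 3762 normalized counts in siControl and 5982 and 5945 in siPHF13. With TGFβ it had 2562 and 2967 in siControl and 4464 and 4721 in siPHF13. The 4 groups did not overlap, with siPHF13 highest and siControl + TGFβ lowest. Depletion raised EREG by 0.69 on the log2 scale (0.53 to 0.86, limma adjusted p = 5.48e-06) in untreated cells and by 0.74 (0.57 to 0.90, limma adjusted p = 2.86e-06) in TGFβ-treated cells. TGFβ lowered it by a similar amount in both, with log2 fold changes of -0.42 (-0.58 to -0.26, limma adjusted p = 0.00161) in siControl and -0.38 (-0.54 to -0.22, limma adjusted p = 0.0113) in siPHF13, neither beyond 0.58. The latter had a limma adjusted p of 0.0944 and 0.0926 without siPHF13 replicate 1 or 2. The difference between these responses was 0.04 (-0.19 to 0.27, limma adjusted p = 0.956).

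TGFA, which encodes transforming growth factor α, an EGFR ligand unrelated to TGFβ, had 68.3 and 66.7 normalized counts in siControl and 15.9 and 32.6 in siPHF13. With TGFβ it had 67.9 and 76.1 in siControl and 14.0 and 20.2 in siPHF13. All 4 siPHF13 libraries lay below all 4 siControl libraries, on 13 to 33 reads against 63 to 74. The log2 fold change was -1.52 (-2.38 to -0.67, limma adjusted p = 0.00627) without TGFβ and -2.03 (-2.89 to -1.17, limma adjusted p = 0.000799) with it. Without siPHF13 replicate 1 the former was -1.03 and its limma adjusted p 0.0696. TGFβ left TGFA at 0.09 (-0.77 to 0.95) in siControl cells, an interval wide enough to hold a change of the size required for a call in either direction.

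AREG, amphiregulin, had 15.2 and 36.0 normalized counts in siControl, 32.8 and 42.4 in siPHF13, 11.9 and 18.5 in siControl + TGFβ and 41.0 and 50.0 in siPHF13 + TGFβ. The untreated groups overlapped, and with TGFβ the siPHF13 libraries were above the siControl libraries. The log2 fold change with depletion was 0.65 (-0.37 to 1.66, limma adjusted p = 0.282) in untreated cells and 1.55 (0.53 to 2.56, limma adjusted p = 0.0143) in TGFβ-treated cells, a difference between media of 0.90 that did not pass the test (limma adjusted p = 0.748). The former ran from 0.05 without siControl replicate 1 (limma adjusted p = 0.954) to 1.24 without siControl replicate 2 (limma adjusted p = 0.0971). The call with TGFβ was lost without siControl + TGFβ replicate 1 (1.25, limma adjusted p = 0.0911) and without siPHF13 + TGFβ replicate 2 (1.41, limma adjusted p = 0.0718). The level of AREG is uncertain for a further reason. GRCh37 holds another copy of it, AREGB (chr4:75480629-75490486), which has no row in the table, and all 6 exons of AREG were found in that copy, with 1233 of 1234 bases identical (99.9%). Reads that match both places may not have been counted for AREG, so its RNA may be higher than listed.

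HBEGF, heparin-binding EGF-like growth factor, had 1680 and 1661 normalized counts in siControl, 1611 and 1518 in siPHF13, 2462 and 2051 in siControl + TGFβ and 2187 and 2086 in siPHF13 + TGFβ. All 4 TGFβ-treated libraries were above all 4 untreated ones. TGFβ raised HBEGF by 0.43 on the log2 scale (0.24 to 0.62, limma adjusted p = 0.00449) in siControl cells and by 0.45 (0.26 to 0.64, limma adjusted p = 0.0112) in siPHF13 cells, both short of 0.58. The former had a limma adjusted p of 0.0530 without siControl replicate 2 and 0.0743 without siControl + TGFβ replicate 1, and the latter of 0.0502 and 0.125 without siPHF13 replicate 1 or 2. With depletion the difference was -0.10 (-0.29 to 0.10) and, in TGFβ-treated cells, -0.07 (-0.26 to 0.12).

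**Figure D3:**
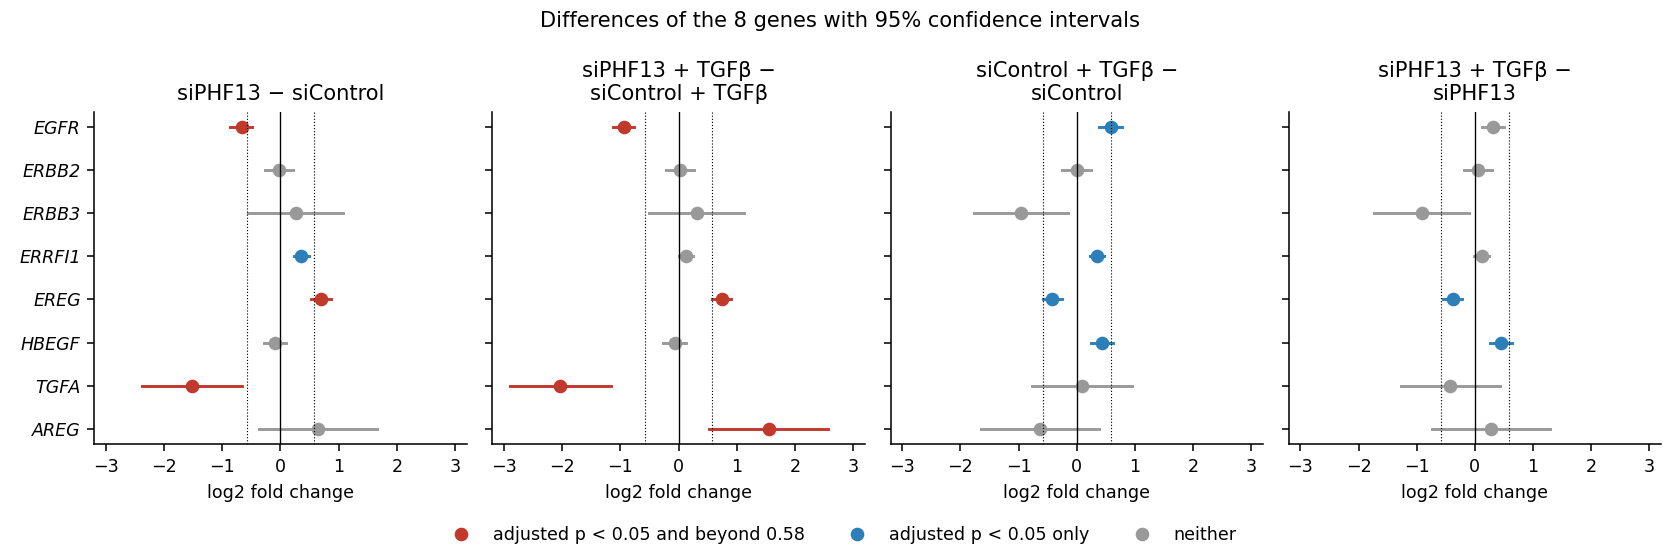
Log2 fold changes of the 8 genes (points) with 95% confidence intervals (bars) in 4 comparisons, dotted lines marking 0.58 in either direction. Red marks an adjusted p under 0.05 with a fold change beyond 0.58, blue an adjusted p under 0.05 alone; EGFR and TGFA lie left and EREG right in both comparisons of siPHF13 with siControl, and HBEGF lies right in both comparisons with TGFβ.

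Counted together, 3 of the 8 members passed both thresholds under depletion, EGFR and TGFA lower and EREG higher, where 18.4% of all genes passed (7.95% higher and 10.4% lower). With TGFβ, depletion gave 4 of 8, as AREG was added, against 20.5% of all genes (8.81% higher and 11.7% lower). By adjusted p alone there were 4 members in each, against 47.4% and 50.4% of all genes, which is the share of the table as a whole. The median log2 fold change of the 8 was 0.12 and 0.08, since members fell and rose, beside medians over all genes that were within 0.01 of 0.

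TGFβ gave 0 members past both thresholds in siControl cells, where 4.79% of all genes passed, and 0 in siPHF13 cells, where 1.35% passed. By limma, 5 and 4 members had an unadjusted p under 0.05, against 28.4% and 13.9% of all genes, and 4 and 2 members an adjusted p under 0.05, against 15.9% and 3.07%. edgeR and DESeq2 on recovered reads also called 0 members past both thresholds in either comparison. Without siControl replicate 1 or without siControl + TGFβ replicate 1, EGFR passed both thresholds, with log2 fold changes of 0.58 and 0.60. For the difference between the responses limma and edgeR called 0 members, and DESeq2 called 0 of the 5 for which it gave an adjusted p, ERBB3, AREG and TGFA having none, while 2 members had an unadjusted p under 0.05, EGFR and ERRFI1, against 9.46% of all genes, and 0.308% of all genes passed both thresholds.

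Of 8 further ERBB receptors and ligands, BTC, NRG1, NRG2 and NRG4 had a row, while ERBB4, EGF, EPGN and NRG3 had none. BTC, betacellulin, a ligand of EGFR and ERBB4, had 28.5 and 16.2 normalized counts in siControl, 46.7 and 36.5 in siPHF13, 5.39 and 19.5 in siControl + TGFβ and 37.8 and 46.2 in siPHF13 + TGFβ. All 4 siPHF13 libraries were above all 4 siControl libraries. The log2 fold change was 1.90 (0.73 to 3.08, limma adjusted p = 0.0102) with TGFβ and 0.91 (-0.27 to 2.09, limma adjusted p = 0.189) without. The 3 neuregulins were called in none of the comparisons by limma, edgeR or DESeq2. NRG1 had log2 fold changes of 0.04 and -0.06 under depletion without and with TGFβ, NRG2 of -0.11 and 0.30, and NRG4 of -0.06 and -0.31. The 0.30 of NRG2 with TGFβ (0.05 to 0.55) had a limma adjusted p of 0.0419, short of the fold required.

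EREG, AREG and BTC lie in this order on chromosome 4, between MTHFD2L and PARM1. Of the 7 genes from MTHFD2L to PARM1, 5 had a row in the table. EPGN, between MTHFD2L and EREG, and AREGB, between AREG and BTC, had none. MTHFD2L, a mitochondrial folate enzyme that starts at chr4:74979891, had log2 fold changes of 0.40 (limma adjusted p = 0.0344) under depletion and 0.50 (limma adjusted p = 0.0107) with TGFβ. PARM1, a membrane mucin on the other side, fell by 0.72 (limma adjusted p = 0.0130) and by 1.02 (limma adjusted p = 0.00131). With TGFβ in siControl cells, a comparison that shares the siControl libraries with untreated depletion, the log2 fold changes were -0.32 for MTHFD2L, -0.42 for EREG, -0.63 for AREG, -0.97 for BTC and 0.68 for PARM1. Among the 5, EREG and PARM1 passed an adjusted p of 0.05 with TGFβ.

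All 9 genes listed for ligand shedding had a row. Under depletion 2 were called higher and 0 lower, where 7.95% and 10.4% of all genes were, with a list median of 0.11, and nothing is read from so small a count. ADAM19, a membrane protease of the family that cuts neuregulin precursors, rose from 1590.0 to 4770.0 mean normalized counts with depletion (log2 fold change 1.58, limma adjusted p = 3.26e-09) and to 8220.0 with TGFβ (2.37, limma adjusted p = 1.03e-10). It was the 1 gene of this list whose response to TGFβ differed with depletion, at 1.15 in siPHF13 against 2.37 in siControl cells (difference -1.21, limma adjusted p = 0.000117). The other called gene was ADAM12, named because of its call, at 14.2 and 8.11 normalized counts in siControl and 38.8 and 59.2 in siPHF13. ADAM17, the main protease for TGFα, AREG, EREG and HB-EGF precursors, had log2 fold changes of 0.32 (limma adjusted p = 0.000794) and 0.24 (limma adjusted p = 0.006) under depletion without and with TGFβ, below the fold required. In TGFβ-treated cells 0 of the 9 were called under depletion by limma, edgeR or DESeq2, where limma called 20.5% of all genes. In limma 5 of the 9 had an unadjusted p under 0.05, beside 7484 of all 13307 genes.

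Of 12 negative regulators of the receptors, ubiquitin ligases, LRIG proteins, SOCS proteins and phosphatases, 0 were called under depletion by limma, edgeR or DESeq2, with 5 at an unadjusted p under 0.05 in limma, where 18.4% of all genes were called and 7181 of 13307 had an unadjusted p under 0.05. In TGFβ-treated cells 1 was called under depletion, where 20.5% of all genes were. This was CBLC, a ubiquitin ligase named because of its call, on 1 and 12 reads in siControl against 44 and 17 in siPHF13. CBLB, a ubiquitin ligase that marks active EGFR for degradation, rose with TGFβ in siControl cells from 413.0 to 762.0 mean normalized counts (log2 fold change 0.89, limma adjusted p = 0.000778). In siPHF13 cells its means were 401.0 without and 565.0 with TGFβ. In that comparison 0 of the 12 were called, where 1.35% of all genes were. For the difference between the responses 0 of the 12 were called, where 0.308% of all genes were.

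Of the adaptors and effectors downstream of the receptors, those called under depletion were all lower, and nothing is read from so small a count. Of 31 genes with a row that are reported, 3 were lower and 0 higher in untreated cells, and 4 were lower and 0 higher with TGFβ, with list medians of -0.05 and -0.13, where 7.95% of all genes were called higher and 10.4% lower in untreated cells and 8.81% and 11.7% with TGFβ. edgeR and DESeq2 gave the same counts. NRAS, a RAS GTPase, had 6460 and 6825 normalized counts in siControl and 2572 and 2657 in siPHF13 (log2 fold change -1.34, limma adjusted p = 3.62e-09). PTPN11, the phosphatase SHP2 that links the receptors to RAS, had -0.79 (limma adjusted p = 9.28e-07) and PLCG1, phospholipase Cγ1, which binds phosphorylated EGFR, had -0.69 (limma adjusted p = 1.31e-06). In TGFβ-treated cells the same 3 were called, with NRAS at -1.49, PTPN11 at -0.89 and PLCG1 at -0.88, together with the adaptor GAB2 (-0.68, limma adjusted p = 0.000119). By adjusted p alone 8 genes were higher and 10 lower in untreated cells, beside 3072 higher and 3236 lower of all 13307 genes. Among the 8 were AKT2 at 0.50 and SHC1 at 0.41, both picked after their values were seen. With TGFβ in siControl cells 0 of the 31 were called by limma, edgeR or DESeq2, where limma called 4.79% of all genes. In limma 10 of the 31 had an unadjusted p under 0.05, beside 28.4% of all genes.

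Of 15 genes often used as readouts of ERK signalling, 2 were called lower and 1 higher under depletion, with a list median of -0.05. This is close to the 18.4% of all genes that were called. ETV4, an ETS transcription factor, fell from 796.0 to 324.0 mean normalized counts (log2 fold change -1.30, limma adjusted p = 6.28e-07), and FOSL1, an AP-1 subunit, fell by 0.65 (limma adjusted p = 0.000264). SPRY2, a feedback inhibitor of receptor tyrosine kinase signalling, rose by 0.76 (limma adjusted p = 2.97e-06). In TGFβ-treated cells ETV4 and SPRY2 were called again, at -1.30 and 0.75, and DUSP6, a phosphatase of ERK, was at -0.61 (limma adjusted p = 0.000111). FOSL1 was not called there. These were 1 higher and 2 lower of the 15, where 20.5% of all genes were called. With TGFβ in siControl cells 1 gene of the 15 was called, where 4.79% of all genes were. This was EGR1, an early response transcription factor, which had 205 and 249 normalized counts without and 740 and 365 with TGFβ (log2 fold change 1.2, limma adjusted p = 0.00343).

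**Figure D4:**
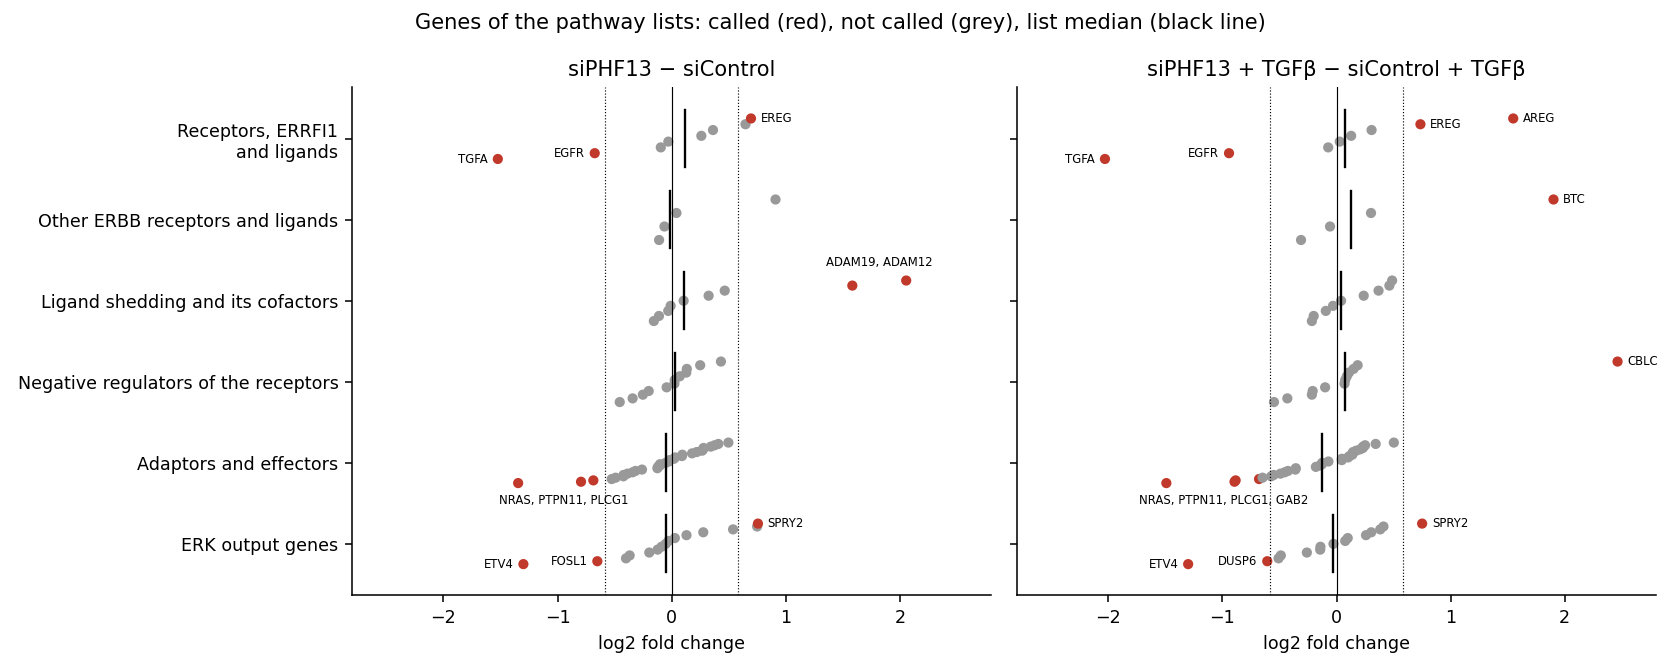
Log2 fold changes of the reported genes with a row in the 5 pathway lists and of the 8 members, under depletion without TGFβ (left) and with TGFβ (right). Red points passed both thresholds and are named, grey points did not, and black lines mark list medians; 3 and 4 of the 31 adaptors and effectors are red, where 18.4% and 20.5% of all genes were called.

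The genes whose pattern over the 8 libraries was most like that of a member were found by the root mean square difference of log2 values, each gene centred on its own mean, among the 11196 genes whose mean reached 100. FMNL3, a formin, was nearest to EGFR, at 0.034 on the log2 scale where EGFR itself varied by 0.475, with group means of 3352, 2025, 4879 and 2551 normalized counts in siControl, siPHF13, siControl + TGFβ and siPHF13 + TGFβ. TRAF1 came next at 0.075. For EREG they were LIPA, the lysosomal acid lipase, at 0.074 and ERI2 at 0.092, against 0.413 for EREG itself. The nearest to HBEGF were CD276 (0.067) and ZNF710 (0.073), and to ERRFI1 they were ETS2 (0.027) and TEP1 (0.043). ERBB2 varied by 0.107, and its neighbours TMEM201 (0.044) and PRR14 (0.047) are genes that hardly varied.

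Several values of the whole series bear on these results. PHF13 had 1804 and 1662 normalized counts in siControl, 524 and 558 in siPHF13, 1586 and 1709 in siControl + TGFβ and 513 and 529 in siPHF13 + TGFβ and was thus lower in all 4 libraries labelled as depleted. Between 39196214 and 46700806 reads were counted on genes per library. All 8 ductal and epithelial markers and all 3 mesenchymal markers were present, and the acinar, endocrine and endothelial markers had no row. The summed epithelial markers, most of it KRT8, KRT18 and KRT19, ran from 199333 to 209791 in siControl, 175378 to 198473 in siPHF13, 131975 to 136022 in siControl + TGFβ and 145749 to 156190 in siPHF13 + TGFβ. Within that list the markers differed in direction. SOX9 had means of 4652, 2645, 8711 and 5665 in the same order, and CDH1 (E-cadherin) of 431, 170, 119 and 116. KRT7 had means of 415 to 434. EPCAM had means of 158, 273, 125 and 241, and MUC1 of 779, 1029, 637 and 936. KRT19 had means of 33371.9, 39777.3, 18674.5 and 31569.7. These last markers, EPCAM, MUC1 and KRT19, were higher with depletion in both media. KRT18 was lower in both, at 48208.0, 38259.5, 32491.6 and 31056.0. KRT8 was lower without TGFβ and higher with it. The summed mesenchymal markers, most of it VIM, ran from 162685 to 164750, 164987 to 169914, 198412 to 205762 and 180446 to 196104, while CDH2 had means of 2163, 1200, 3134 and 1760 and FN1 of 123, 71.2, 181 and 74.8. Of 4 leukocyte markers, PTPRC and CD3E had no row, while the sum of CD68 and CD14, nearly all of it CD68, a lysosomal protein, was 7311 to 7439 in siControl and 11945 to 13094 in siPHF13. Of 4 fibroblast markers PDGFRB alone had a row, at 25.6 to 57.1. Their part in the differences of the 8 genes was not tested.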

How the data were processed

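As stated in the study's methods and labels, reads were trimmed by the authors with Trim Galore 0.4.1, mapped to hg19 with STAR 2.7.0, counted on exons with HTSeq 0.12.4 and normalized with DESeq2. The deposited signal is the read count of a gene divided by the size factor of its library. The annotation release and the strand setting are not given in the sources used here. The deposited tables of the authors' own comparisons hold group means, log2 fold changes with standard errors, p-values and adjusted p-values, and none of their values is reported. Library columns were assigned by their names (NT, NCT, PHF13 and PHF13T, with the replicate number), with these group means as a further check.

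Differences were tested with limma 3.58.1 (R 4.3.3, trended prior variance) on log2(normalized count + 1), in one fit over 4 groups and 8 libraries with 4 residual degrees of freedom. The 2-sided p-values were adjusted by Benjamini-Hochberg over 13307 genes. Adjusted p under 0.05 with an absolute log2 fold change over 0.58 made a call. The pseudocount understates the changes of low genes. A minimum of 10 in 2 libraries removed 0 genes. All values were whole multiples of 1 step per library (within 0.01 of a whole read, 100% of values), and the recovered reads went into edgeR 4.0.16 and DESeq2 1.42.0 as alternatives. In siPHF13 replicate 1 the step was 0.995, close to 1. The other alternatives were a pseudocount of 5, no minimum, TMM factors, only the libraries compared, a replicate block, no threshold on the fold change and each library left out.

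Positions and transcript lengths came from GENCODE on GRCh37, and the AREG copy was found with blastn. The members and gene lists were chosen with earlier results of these data known. Named are all members, further ERBB receptors and ligands with a row, called list genes with a mean of at least 100 (up to 6 per list and comparison), the 2 genes most like each member with a mean of at least 100, and PHF13. From the list of adaptors and effectors, 2 genes are not reported here and were left out of its counts. MTHFD2L, PARM1, ADAM12, CBLC, ADAM17, AKT2 and SHC1 were added after their values were seen.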

Additional observations from a re-analysis of the deposited data

How the results depend on the processing

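Directions of the member differences that passed both thresholds were the same under a pseudocount of 5, no minimum, TMM factors, only the libraries compared, edgeR and DESeq2, and so were their calls. Of 600 comparisons of a member's log2 fold change with an alternative, 569 kept direction and side of the thresholds, 3 lost a call, 2 gained one and 26 changed sign, all 26 in differences that were not called. Without a threshold on the fold change, 6308 genes were called under depletion, 6712 under depletion with TGFβ, 2114 with TGFβ in siControl cells (4 members) and 409 in siPHF13 cells (2 members), since adjusted p alone then makes the call. Leaving out each library in turn gave 0 to 1 members with TGFβ (EGFR) and 12 to 111 genes in all for the difference between the responses, 111 without siPHF13 + TGFβ replicate 1, 12 without siControl replicate 2 and 16 to 22 without siControl replicate 1, siPHF13 replicate 1 or either siControl + TGFβ library, against 41 with all libraries.

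The ranges over libraries left out that crossed 0 were, under depletion, -0.13 to 0.07 for ERBB2 and -0.21 to 0.73 for ERBB3. Under depletion with TGFβ they were -0.10 to 0.16 for ERBB2 and -0.21 to 0.06 for HBEGF. With TGFβ ERBB2 ran from -0.12 to 0.12, and in siPHF13 cells from -0.08 to 0.19 with TGFA from -0.91 to 0.08. For the difference between the responses they were -0.08 to 0.19 for ERBB2, -0.42 to 0.52 for ERBB3, -0.07 to 0.15 for EREG and -0.11 to 0.15 for HBEGF. edgeR and DESeq2 gave ERBB2 0.00 with TGFβ and ERBB3 -0.00 for the difference. The cause was not tested. Depth limits TGFA, AREG, ERBB3 and BTC, whose libraries hold 5 to 90 reads.

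Replicate numbers are shared by the groups, but nothing in the labels says that they pair libraries. Deviations of libraries with the same number correlated at 0.072 between siControl and siPHF13, 0.271 between the TGFβ-treated groups, 0.011 between siControl groups and -0.252 between siPHF13 groups. With a replicate block 2438, 2711, 630, 171 and 39 genes were called under depletion, depletion with TGFβ, TGFβ, TGFβ in siPHF13 cells and for the difference, and 3, 4, 0, 0 and 0 members, so that the block changed no count of members. Crossing the numbers between the siPHF13 groups, chosen after seeing the data, gave 241 genes and 0 members.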
